A study of Rattus norvegicus with 9 samples.

Results

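Pleiotrophin and midkine form a pair of related secreted growth factors, and this account covers their genes, Ptn and Mdk, together with the genes of 3 of their receptors, Ptprz1, Alk, and Lrp1, in adipose-derived mesenchymal stem cells (ASCs) of the rat. The 5 genes were taken by symbol from a table of 35362 genes, where all 5 were found, and 4 of them, all but Alk, had enough counts to enter the 14770 genes tested. The set was chosen by the counts of Ptn, which was nearly absent from perirenal ASCs and abundant in subcutaneous ASCs. The levels of Ptn are therefore given as a description without a p-value, and the 4 other genes entered as its relative and its receptors. ASCs were grown from the subcutaneous fat of the groin (SASCs), the perirenal fat (PASCs), and the epididymal fat (EASCs) of male Sprague Dawley rats aged 6 weeks, which were starved before the cells were isolated. RNA of cells at passage 3, after selection by adhesion to plastic in medium with 10% serum, was sequenced in 3 samples of each group. The methods describe 6 rats and, for the RNA, 6 replicates per group that were wells of culture plates, and the labels do not say which rats the 3 samples of each group represent. The p-values below therefore measure the spread between these samples, which may be technical.

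Pleiotrophin and midkine are small basic proteins rich in cysteine that bind heparin, and each is held near cells by the sulfated sugar chains of proteoglycans. PTPRZ1 is a receptor tyrosine phosphatase that itself carries chondroitin sulfate, and binding of the ligand lowers its phosphatase activity, so that tyrosines of its substrates stay phosphorylated. ALK is a receptor tyrosine kinase, and LRP1 is a very large receptor that takes up many ligands, midkine among them, by endocytosis. Both growth factors are best known from the developing nervous system and from bone, and pleiotrophin is also known to restrain the differentiation of preadipocytes into adipocytes.

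The total counts of the 9 samples ranged from 17591916 to 30299032. Levels are given as CPM, counts per 1e6 counts of a library whose size was adjusted by TMM in edgeR, on which scale 3 counts, taken as the limit of detection, correspond to 0.104 to 0.159 CPM, a limit that covers counting error only. The share of counts taken by genes of ribosomal RNA was 10.4% to 15.5% (SASCs), 22.4% to 32.9% (PASCs), and 15.9% to 40.3% (EASCs). All 8 markers of mesenchymal stem cells had over 3 counts in every group, and their summed level was 20130 to 21310 CPM (SASCs), 19360 to 23720 CPM (PASCs), and 21710 to 24360 CPM (EASCs). Most of this sum was Col1a1 in PASCs and EASCs, and 2 of the 8 markers were downregulated DEGs in both, as Lrp1 was, namely Dcn, at a mean of 6880 (SASCs), 217.6 (PASCs), and 300.6 CPM (EASCs), and Pdgfra, at 1543, 278, and 235 CPM. Eng was an upregulated DEG in EASCs (1.77, adjusted p = 3.91e-20), where Col1a1 and Nt5e rose by less than 2-fold (0.93 and 0.91, adjusted p = 2.30e-11 and 7.77e-15). Cd44 rose there as well (0.175), whereas Thy1 and Pdgfrb fell (-0.43 and -0.40). In PASCs Pdgfrb fell (-0.48), and Cd44, Thy1, Eng, and Col1a1 rose (0.28, 0.51, 0.58, and 0.84), all by less than 2-fold. Of the 8 markers of Schwann cells, a cell type known for Ptprz1 and Ptn, Foxd3 was at 0 in every sample and Sox10 and Cdh19 had at most 3 counts in any sample. The summed level of this list, most of it S100b in SASCs and PASCs, was 30.9 to 34.9 CPM (SASCs), 9.72 to 11.2 CPM (PASCs), and 3.10 to 3.89 CPM (EASCs), whereas its member Ngfr was an upregulated DEG in both groups, at a mean of 0.226 (SASCs), 1.77 (PASCs), and 0.925 CPM (EASCs). Summed in the same order of groups, the 8 mesothelial markers were at 18.4 to 20.02, 94.5 to 101.4, and 129.5 to 141.0 CPM, and the 6 markers of smooth muscle cells and pericytes at 139.4 to 147.3, 1054 to 1074, and 2654 to 2697 CPM. Acta2 carried most of the rise in the latter list, in which 4 genes were upregulated DEGs in either group and 2 downregulated ones, Notch3 and Rgs5. The 5 markers of proliferating cells were at 58.4 to 61.7, 498.5 to 509.1, and 298.0 to 304.5 CPM, and the 5 adipocyte markers at 87.1 to 95.9, 19.1 to 20.2, and 9.24 to 10.1 CPM. The 6 endothelial markers were at 44.3 to 46.0, 11.7 to 14.6, and 30.5 to 33.1 CPM, although 1 of them, Tek, was an upregulated DEG in both groups (means of 2.55, 8.30, and 8.08 CPM) and only 1 was a downregulated DEG in EASCs, against 5 in PASCs. In the same order, the 6 of 7 macrophage and leukocyte markers found in the table were at 39.4 to 41.7, 61.9 to 63.9, and 92.0 to 94.5 CPM. All of these lists but that of the mesenchymal stem cells separated the 3 groups, and their part in the differences described next was not tested.

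Ptn was a gene of SASCs. It had 1555, 1141, and 948 counts in the 3 samples of SASCs, or 54.1, 48.4, and 46.3 CPM. In PASCs the counts were 0, 2, and 1, each at or under the limit of 3 counts, so that the sample without a count allows a level of up to 0.115 CPM. In EASCs there were 14, 5, and 12 counts, or 0.586, 0.203, and 0.537 CPM. Every sample of EASCs was thus above the limit and above every sample of PASCs, and both were far below every sample of SASCs. SASCs had a mean of 49.6 ± 4.02 CPM and EASCs one of 0.442 ± 0.209 CPM (SD, n = 3 each). With the counts of each group pooled, SASCs exceeded EASCs by a ratio of 114.5 (95% interval 80.5 to 168.7, 3644 against 31 counts) and PASCs by a ratio of 1197 (409.4 to 5809, 3644 against 3 counts). The ratio of EASCs to PASCs was 10.5 (3.26 to 53.5). These exact intervals cover counting error only, and without PASCs replicate 2, which holds 2 of the 3 counts, the log2 ratio of PASCs to SASCs moved from -10.2 to -11.1, while it was -9.57 without PASCs replicate 1. Without PASCs replicate 1 or 2 the log2 ratio of EASCs to PASCs was 2.73 or 4.30. Among the 14770 genes tested, 2 had a lower fitted log2 fold change than Ptn in PASCs and 53 in EASCs, both against SASCs. Such ranks are a description, since the counts of Ptn chose the set and Ptn passed the filter on low counts only through SASCs. In bulk RNA, fewer cells that express a gene and less of its RNA per cell cannot be told apart. Ptn lies on the minus strand of chromosome 4 from 64239156 to 64330996 of rn6, and the only gene whose span overlaps it in the table, Prr21, had 0 counts.

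Mdk was also highest in SASCs but kept a measurable level in all groups. Its 3 samples had 194, 176, and 130 counts in SASCs (6.74, 7.47, and 6.35 CPM), 46, 25, and 18 counts in PASCs (1.76, 0.935, and 0.953 CPM), and 78, 110, and 78 counts in EASCs (3.27, 4.46, and 3.49 CPM). The 3 groups did not overlap and followed the order SASCs, EASCs, PASCs. The means were 6.85 ± 0.570 (SASCs), 1.22 ± 0.471 (PASCs), and 3.74 ± 0.634 CPM (EASCs, mean ± SD, n = 3 each). Against SASCs, the log2 fold change was -2.47 in PASCs (standard error 0.223, adjusted p = 1.52e-10, edgeR's quasi-likelihood test), which made Mdk a downregulated DEG there, that is, a gene that passed the test at an adjusted p of 0.05 and changed by more than 2-fold, like 14.9% of all genes tested. In EASCs it was -0.87 (standard error 0.192, adjusted p = 2.45e-04), a fall of less than 2-fold that passed the test, as did a fall in 34.3% of all genes. It became a DEG there at -1.02 without EASCs replicate 2, the highest of its group, and at -1.26 with total counts in place of TMM, where the median of all genes was -0.39. Compared directly, EASCs exceeded PASCs in Mdk by 1.60 (standard error 0.235, adjusted p = 4.71e-06), an upregulated DEG like 5.19% of all genes. Mdk lies on the minus strand of chromosome 3 from 80841003 to 80843913, and its span shares 11 bases with Chrm4 on the other strand, which had 4 counts over all samples.

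**Figure D1:**
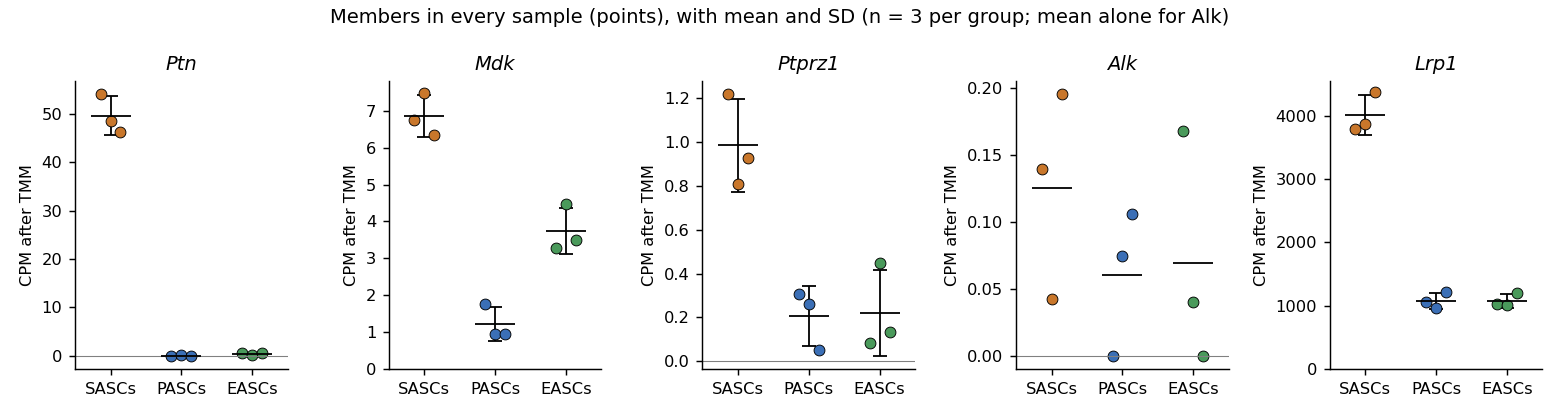
CPM after TMM scaling of Ptn, Mdk, Ptprz1, Alk, and Lrp1 in each of the 9 samples (points, on a separate linear axis for each gene), with the mean (line) and SD (bars, n = 3 per group; mean alone for Alk). All genes but Alk were higher in every sample of SASCs than in every sample of PASCs and EASCs, and Mdk had a level in EASCs (3.27 to 4.46 CPM) between those of the other groups.

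Since Ptn and Mdk differ in length (3806 and 1656 bases in the table), their levels were set side by side as FPKM, CPM divided by the length in kilobases. In SASCs the level of Ptn was 13.03 ± 1.06 FPKM and that of Mdk 4.14 ± 0.344 FPKM (SD, n = 3 each), so that Ptn made up 73.8% to 77.7% of the sum of both ligands. In EASCs the share of Ptn was 1.94% to 7.24%, and in PASCs 0 to 3.36%, and the ligand left in both was Mdk. The sum of both ligands was 16.0 to 18.3 FPKM in SASCs, 2.13 to 2.75 FPKM in EASCs, and 0.584 to 1.06 FPKM in PASCs. Mdk thus was the lesser ligand in all 3 samples of SASCs and the greater one in the 6 others, although its own level was highest in SASCs. The share follows in part from the choice of the set by Ptn and was not tested.

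**Figure D2:**
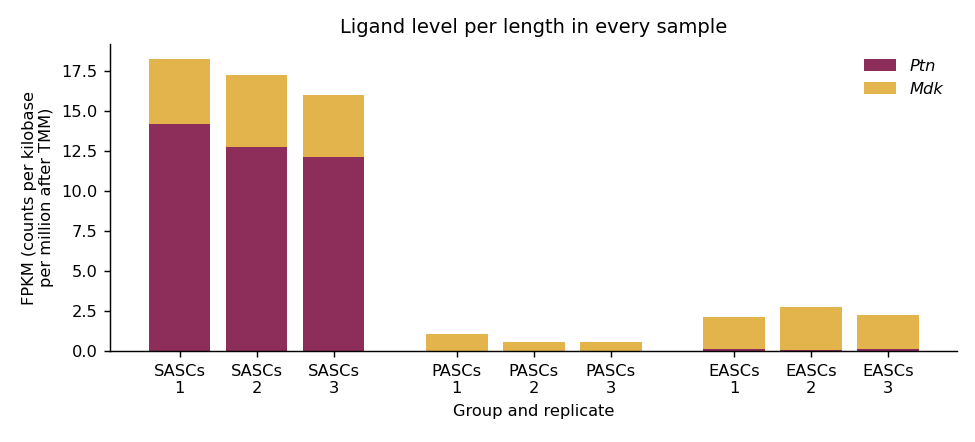
FPKM of Ptn and Mdk, stacked, in each sample of SASCs, PASCs, and EASCs. Ptn fills most of the bar in each of the 3 samples of SASCs (12.2 to 14.2 FPKM) and is hardly visible in the 6 other samples, where the bars consist of Mdk.

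Of the receptors, Ptprz1 was weakly expressed and lower outside SASCs. It had 35, 19, and 19 counts in SASCs (1.22, 0.807, and 0.928 CPM), 8, 7, and 1 counts in PASCs (0.306, 0.262, and 0.0530 CPM), and 2, 11, and 3 counts in EASCs (0.0837, 0.446, and 0.134 CPM). Samples of SASCs did not overlap with those of either other group, whereas PASCs and EASCs overlapped. The log2 fold change against SASCs was -2.12 in EASCs (standard error 0.558, adjusted p = 0.00153) and -2.15 in PASCs (standard error 0.559, adjusted p = 0.00133), a downregulated DEG in both, as were 14.2% of all genes in EASCs. Ptprz1 passed the filter on low counts only through its level in SASCs, so that a difference in this direction was built into its being tested. In EASCs the size of the fall depended on single samples. It was larger, at -3.13, without EASCs replicate 2, which held 11 of the 16 counts, and smaller, at -1.73, without EASCs replicate 1. Between EASCs and PASCs the difference of 0.03 did not pass the test (95% interval -1.40 to 1.46, adjusted p = 0.980), and an interval this wide leaves changes in either direction undetected at this depth. Ptprz1 spans chromosome 4 from 49941265 to 50140764 on the plus strand, and the table has one row for all its transcript forms.

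Alk was hardly detected in any group. SASCs had 4, 1, and 4 counts, PASCs 0, 2, and 2, and EASCs 4, 1, and 0, in a gene on chromosome 6 from 22696415 to 23203791 of the plus strand. With at most 4 counts in a sample it did not enter the test, and a difference between the groups, whose samples overlapped, was not detectable at this depth. The other genes of this branch were scarce as well. Ltk, the receptor kinase most similar to ALK, had 2 to 4 counts per sample (SASCs), at most 2 in PASCs, and at most 1 in EASCs. Of the genes of the ligands that activate both kinases, the table holds one under its older symbol Fam150b, which was at 0 in every sample.

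Lrp1 was by far the most abundant of the receptors. It had 109263, 91194, and 89708 counts in SASCs, or 3798, 3871, and 4379 CPM. In PASCs it was at 1052, 956, and 1210 CPM, and in EASCs at 1023, 1004, and 1207 CPM, from at least 22846 counts in each sample. The lowest sample of SASCs was above the highest of the 6 others, and PASCs and EASCs covered nearly the same range. The means were 4016 ± 316 (SASCs), 1072 ± 128 (PASCs), and 1078 ± 112 CPM (EASCs, mean ± SD, n = 3 each). The log2 fold change against SASCs was -1.90 in EASCs (standard error 0.0810, adjusted p = 1.23e-17) and -1.91 in PASCs (standard error 0.0810, adjusted p = 1.16e-17), a downregulated DEG in both. Between EASCs and PASCs the difference was 0.01 (95% interval -0.153 to 0.169, adjusted p = 0.956), which limits it to a small fraction of the difference from SASCs.

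Per length, Lrp1 was at 269 ± 21.2 FPKM in SASCs, rank 184 of the 14770 genes tested, and at 71.9 ± 8.61 FPKM in PASCs and 72.3 ± 7.496 FPKM in EASCs (SD, n = 3 each), ranks 757 and 743. Ptprz1 was at 0.101 ± 0.0215 FPKM in SASCs (SD, n = 3), and Lrp1 made up 99.92% to 99.98% of the summed FPKM of Ptprz1, Alk, and Lrp1 in every sample. The ratio of Lrp1 to both ligands together, on the same scale, was 13.9 to 18.4 in SASCs, 24.5 to 36.0 in EASCs, and 66.3 to 137.5 in PASCs. Most of the ligand sum in SASCs was Ptn, whose counts chose the set, so that this order is partly built in. The ratio of Lrp1 to Mdk alone had another order, with 57.5 to 76.6 in SASCs, 25.0 to 38.4 in EASCs, and 66.3 to 140.9 in PASCs, where samples of SASCs and PASCs overlapped and those of EASCs lay below both. Lrp1 lies on the minus strand of chromosome 7 from 70846313 to 70927028, and no other gene of the table overlaps it.

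**Figure D3:**
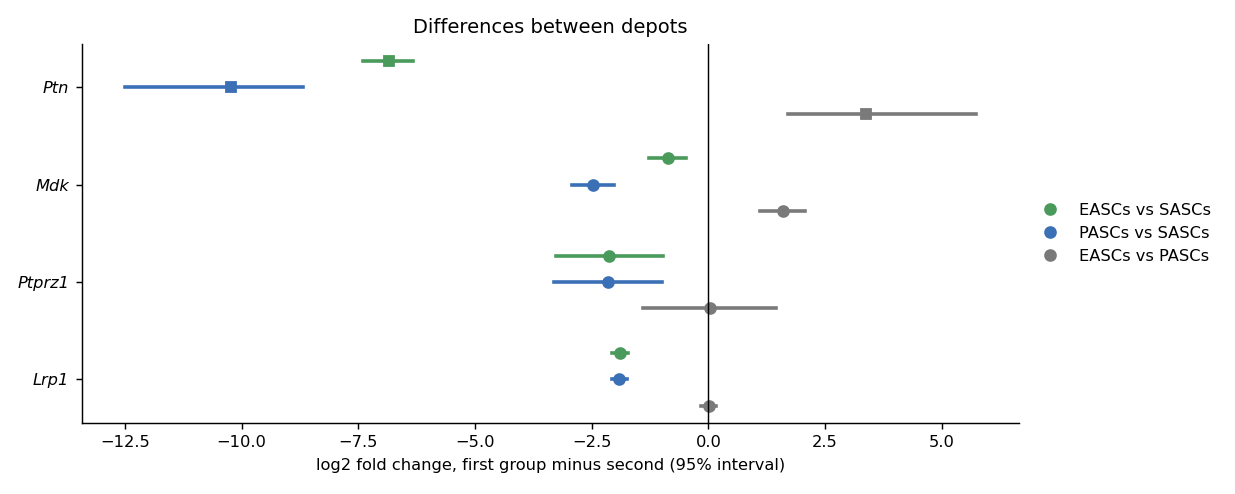
Log2 fold changes, first group minus second, with 95% intervals for the 3 comparisons of depots. Circles are edgeR estimates for Mdk, Ptprz1, and Lrp1, squares are ratios of pooled Ptn counts with counting error only, and Lrp1 and Ptprz1 lie at 0 between EASCs and PASCs (0.01 and 0.03) where Mdk does not (1.60).

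The bases before the start of Lrp1 are shown because it is, with Ptn, the abundant member that was lower in both visceral groups. RefSeq sequences of the GRCr8 assembly, which is not the build of the counts, gave a window before the start for 3 of the 5 members, Ptn, Alk, and Lrp1, and the first 250 bases, those that precede the start, were searched on both strands. The motifs were the GC box, with the letters GGGCGG, and the TATA box, with the letters TATAAA. The others were the CCAAT box, searched as those 5 letters, and the AP-1 site, with the letters TGANTCA. In the Lrp1 window, on the minus strand at chr7:65346197-65346446 of GRCr8, capitals mark the match to the GC box, here read on the opposite strand.
Lrp1: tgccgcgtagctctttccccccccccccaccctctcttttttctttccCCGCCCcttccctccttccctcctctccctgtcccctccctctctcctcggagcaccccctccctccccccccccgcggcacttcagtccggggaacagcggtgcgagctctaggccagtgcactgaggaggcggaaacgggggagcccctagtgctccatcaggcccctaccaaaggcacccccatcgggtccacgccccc
The window is rich in pyrimidine runs, with 68.8% G and C and 13 CpG dinucleotides, against medians of 51.2% and 5 over the 33469 windows of that length. It holds 1 GC box, as 30.5% of all windows hold at least 1, and none of the other motifs. The window of Ptn, which lies inside the span that longer transcripts give the gene and is not printed, had 57.6% G and C with 9 CpG dinucleotides, and held 1 GC box and 1 AP-1 site, a motif found in 6.34% of all windows. The window of Alk had 70.4% G and C and held 5 GC boxes and 1 CCAAT box, found in 34% of windows. These are matches of letters only.

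To place the members among the proteins they work with, 59 gene symbols were listed by role, among them both the older and the newer name of 3 genes (Ctgf, Fam150a, and Fam150b). Of these symbols, 55 were in the table and 47 were tested. In EASCs against SASCs, 20 of the 47 were DEGs (27.8% of all genes were), of which 13 were upregulated and 7 downregulated, where 13.6% and 14.2% of all genes were. In PASCs there were 17 DEGs (26.9% of all genes), 9 upregulated and 8 downregulated DEGs, against 12% and 14.9% of all genes. Between EASCs and PASCs 8 were DEGs (7.39% of all genes), of which 6 were higher and 2 lower in EASCs, against 5.19% and 2.2% of all genes. Without EASCs replicate 1 these 8 became 5. The median log2 fold change of the list was 0.25 in EASCs and 0.11 in PASCs against SASCs and 0.24 between them, while that of all genes was 0.01, -0.01, and -0.01. With total counts in place of TMM the medians of all genes moved to -0.39, -0.33, and -0.08, and the upregulated share of all DEGs from 48.8% to 28.3% in EASCs and from 44.7% to 28.5% in PASCs. A shift of this size cannot turn a DEG. Among genes of the list that passed the test with smaller changes, Arhgap35, Ctnnb1, Hs6st1, Itga6, Ncl, and Notch2 turned in EASCs, and Lrp8 was among those that turned in PASCs. The genes named below are the 2 DEGs of each role with the largest change, unless it is said otherwise.

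Of 8 other surface proteins that bind the ligands, 3 were upregulated DEGs in EASCs and 2 in PASCs, against 13.6% and 12% of all genes. None was a downregulated DEG, against 14.2% and 14.9% of all genes, and 8 genes are too few to tell 0 from such shares. Nrp1, a neuropilin, is named as the one gene with a lower mean in EASCs after TMM (without it Itga6, Ncl, and Notch2 were lower too), where its log2 fold change of -0.13 missed the threshold (adjusted p = 0.0503) although the samples did not overlap. Itgb3, which pairs with the alpha v chain in an integrin that pleiotrophin binds, was at 2.48 ± 0.194 (SASCs), 17.3 ± 0.452 (PASCs), and 21.8 ± 1.24 CPM (EASCs, mean ± SD, n = 3 each), log2 fold changes of 2.81 (adjusted p = 1.50e-17) and 3.14 (adjusted p = 8.29e-19). Itga4, the alpha chain of an integrin described as a midkine receptor, was scarce at 0.350 ± 0.0626 CPM in SASCs and rose by 2.56 (adjusted p = 8.13e-07) in EASCs and by 1.64 (adjusted p = 6.00e-04) in PASCs. Nucleolin (Ncl), a nuclear protein that can bind both ligands at the surface, is named although it was no DEG, for its level of 122 ± 1.65 FPKM in SASCs. There Lrp1 was above it per length, whereas in EASCs (149 ± 9.54 FPKM) and PASCs (165 ± 9.38 FPKM) Ncl was above Lrp1 (SD, n = 3 each).

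Of 9 proteoglycans, 7 were tested, and in EASCs and in PASCs alike 2 were upregulated and 1 was a downregulated DEG, while 4 were no DEG. Downregulated DEGs thus were about as frequent as among all genes (14.2% in EASCs and 14.9% in PASCs), of which 13.6% and 12% were upregulated DEGs. Sdc3, the syndecan of neurons through which pleiotrophin acts on neurites, was at 18.2 ± 0.548 (SASCs), 87.0 ± 2.75 (PASCs), and 98.8 ± 9.87 CPM (EASCs, mean ± SD, n = 3 each), log2 fold changes of 2.26 (adjusted p = 2.24e-20) and 2.44 (adjusted p = 3.23e-21). Gpc2, a glypican that binds midkine, had the opposite direction, with 40 to 44 counts per sample (SASCs), 3 to 7 (PASCs), and 11 to 14 (EASCs), and log2 fold changes of -2.97 (adjusted p = 9.54e-07) and -1.71 (adjusted p = 2.60e-04). Sdc1, chosen after its values were seen as the other upregulated gene, rose by 2.41 (adjusted p = 3.77e-22) in EASCs and by 1.79 (adjusted p = 2.48e-19) in PASCs.

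Of the 8 enzymes that sulfate the sugar chains, 1 rose and 1 fell as a DEG in either group. This is close to the shares of all genes (13.6% and 14.2% in EASCs, 12% and 14.9% in PASCs). Chst15, which makes the highly sulfated chondroitin sulfate E that both ligands bind with high affinity, was at 80.6 ± 4.36 (SASCs), 15.9 ± 0.529 (PASCs), and 5.13 ± 0.343 CPM (EASCs, mean ± SD, n = 3 each). Its log2 fold change was -2.34 in PASCs (adjusted p = 1.68e-20) and -3.97 in EASCs (adjusted p = 3.02e-24), and it was lower in EASCs than in PASCs by 1.63 on the log2 scale (adjusted p = 1.14e-13), the opposite order to that of Mdk. Chst3, another chondroitin sulfotransferase, was at 0.697 ± 0.248 CPM in SASCs and rose by 2.13 (adjusted p = 3.02e-06) in EASCs and by 1.11 (adjusted p = 0.00792) in PASCs, where its samples overlapped with those of SASCs.

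Among 11 relatives, partners, and substrates of PTPRZ1, 9 were tested, with 3 upregulated and 2 downregulated DEGs in EASCs and 1 and 2 in PASCs. Of all genes, 13.6% and 14.2% were such DEGs in EASCs and 12% and 14.9% in PASCs. Cntn1, a neuronal adhesion protein that binds the outer part of PTPRZ1, had 98 counts over the 3 samples of SASCs, 0 in PASCs, and 1 in EASCs. It was at least 32.2-fold lower in PASCs, taking 3 counts over the group as the limit, having passed the filter only through SASCs, and the ratio of SASCs to EASCs was 95.4 (95% interval 16.7 to 3808, counting error only). With 0 and 1 counts, both under that limit, PASCs and EASCs cannot be ranked, and the ratio to EASCs rests on 1 count. Tnc, tenascin C, a matrix protein that also binds PTPRZ1, was at 217.5 ± 10.3 (SASCs), 981 ± 68.7 (PASCs), and 3512 ± 225 CPM (EASCs, mean ± SD, n = 3 each), log2 fold changes of 2.17 (adjusted p = 6.72e-21) and 4.01 (adjusted p = 4.46e-26). Fyn, a Src family kinase on which PTPRZ1 acts, was the other downregulated DEG and was chosen after its values were seen. Its mean was 203 CPM in SASCs against 71.8 (PASCs) and 57.3 CPM (EASCs), log2 fold changes of -1.50 (adjusted p = 3.43e-19) and -1.83 (adjusted p = 5.57e-21), and its span overlaps LOC102551059, which has few counts. Add2 was at 0 counts in all samples.

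Of 9 relatives of LRP1, counting the chaperone Lrpap1, 8 were tested. Against SASCs, 2 were upregulated DEGs in EASCs and 1 in PASCs, where 13.6% and 12% of all genes were. None was a downregulated DEG, against 14.2% and 14.9% of all genes, and 8 genes are too few to tell 0 from such shares. With smaller changes included, 5 passed the test as lower and 3 as higher in EASCs, and 2 and 5 in PASCs. Between EASCs and PASCs, 1 DEG was higher and 1 lower in EASCs. Lrp2, or megalin, an endocytic receptor of epithelia, had 3 to 4 counts per sample (SASCs), 4 to 14 (PASCs), and 36 to 48 (EASCs), and its log2 fold change in EASCs was 3.69 (adjusted p = 5.60e-07). EASCs exceeded PASCs by 2.09 (adjusted p = 4.54e-04). In PASCs Lrp2 was the one DEG against SASCs (1.60, adjusted p = 0.0253), with samples that overlapped. It passed the filter on low counts only through EASCs, so that a higher level there was built into its being tested. Lrp4, which takes part in agrin and Wnt signaling, rose by 1.62 (adjusted p = 3.74e-07) in EASCs and by 0.91 (adjusted p = 0.00123) in PASCs. Lrp1b, the closest relative of Lrp1, had at most 2 counts in any sample. Lrpap1, the chaperone that keeps LRP1 from binding ligands on its way to the surface, is named for that role, and fell by 0.14 on the log2 scale (adjusted p = 0.0437) in EASCs and by 0.48 (adjusted p = 1.61e-07) in PASCs, against 1.90 and 1.91 for Lrp1.

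Of 9 entries for ligands of LRP1, 8 were in the table and 7 were tested, with 2 upregulated and 3 downregulated DEGs in EASCs and 2 and 4 in PASCs. The shares of all genes were 13.6% and 14.2% in EASCs and 12% and 14.9% in PASCs. Apoe, apolipoprotein E, had the same order of groups as Ptn and Mdk, with 830 ± 32.4 (SASCs), 56.7 ± 4.41 (PASCs), and 178 ± 9.98 CPM (EASCs, mean ± SD, n = 3 each), log2 fold changes of -3.87 (adjusted p = 4.16e-26) and -2.22 (adjusted p = 7.47e-22). Ctgf, a matricellular growth factor, went the other way, with 372 ± 21.7 (SASCs), 2476 ± 184 (PASCs), and 3597 ± 139.8 CPM (EASCs, mean ± SD, n = 3 each), log2 fold changes of 2.73 (adjusted p = 6.40e-23) and 3.27 (adjusted p = 1.68e-24). A2m, alpha-2-macroglobulin, was listed at 0 in every sample.

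**Figure D4:**
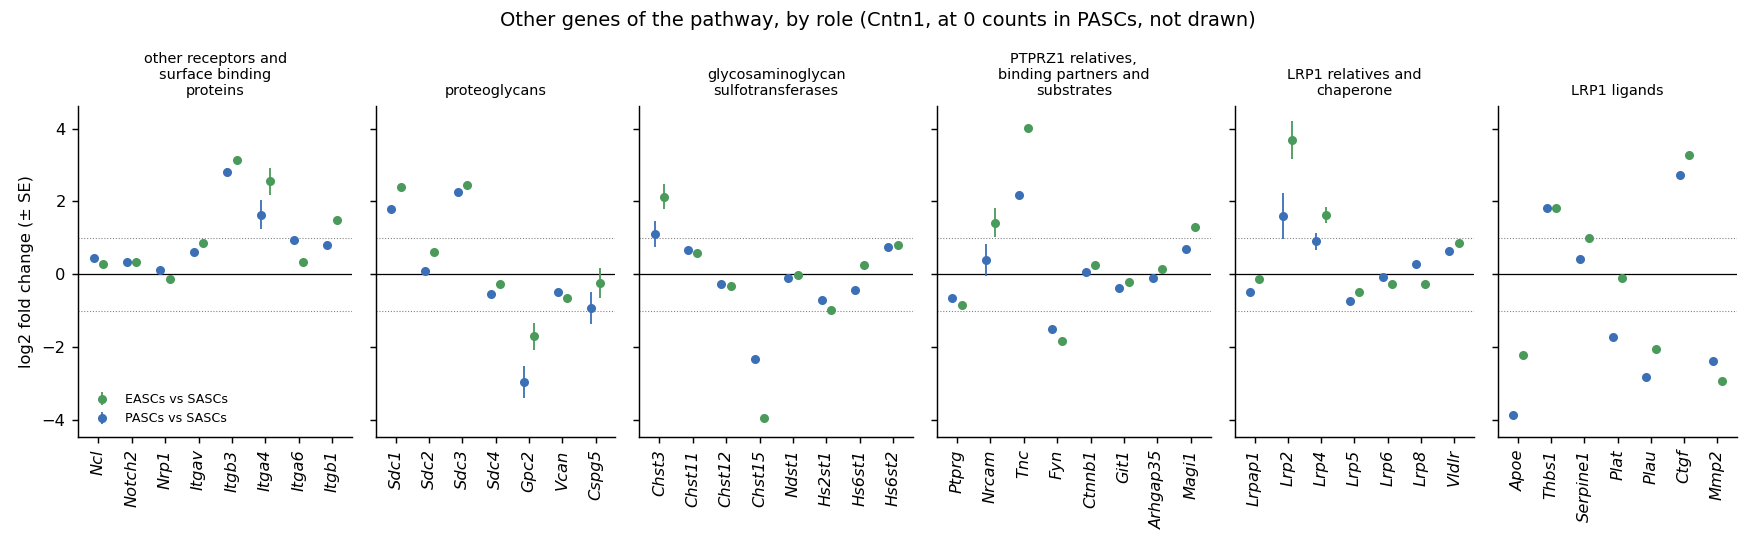
Log2 fold change against SASCs (± SE) in EASCs (green) and PASCs (blue) for the tested genes of the pathway list, by role. Cntn1, at 0 counts in PASCs, and a gene not reported here are not drawn, and dotted lines mark a fold change of 2. Chst15 (-3.97 and -2.34) and Apoe (-2.22 and -3.87) lie far below 0, and Tnc (4.01 and 2.17) and Ctgf (3.27 and 2.73) far above.

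The genes most like each member were sought by the distance between centered log2 CPM over the 9 samples, which fall into 3 groups, so that these values describe shared group levels and were not tested. For Ptn the nearest were Igfbp5 (distance 1.81, Pearson's r = 0.989), which encodes a binding protein of insulin-like growth factors, Cemip (2.10, r = 0.993), whose product takes part in the breakdown of hyaluronan, Tmeff2 (2.48, r = 0.980), the homeobox gene Irx1 (2.81, r = 0.989), and C7 (2.93, r = 0.981), a component of complement. Igfbp5 was at 152 ± 7.10 (SASCs), 0.226 ± 0.134 (PASCs), and 0.882 ± 0.293 CPM (EASCs, mean ± SD, n = 3 each), the same order of means as for Ptn. Irx1 was at 7.52 ± 0.550 CPM in SASCs and at 0 in every sample of PASCs. For Mdk the nearest were Fgd5 (0.353, r = 0.994), Ache (0.659, r = 0.978), Nrep (0.697, r = 0.985), Il17re (0.727, r = 0.978), and Rtp4 (0.739, r = 0.986). Nrep, a small protein known from regenerating nerves, was at 21.0 ± 1.68 (SASCs), 2.94 ± 0.485 (PASCs), and 11.7 ± 0.969 CPM (EASCs, mean ± SD, n = 3 each). For Lrp1 the nearest were Pik3r1 (0.217, r = 0.998), the regulatory subunit of PI3 kinase, Zcchc14 (0.290, r = 0.994), the cytokine receptor subunit Il6st (0.328, r = 0.994), Serinc5 (0.340, r = 0.994), and Med23 (0.349, r = 0.992), which stood, like Lrp1, at nearly one level in PASCs and EASCs. Pik3r1 was at 115 ± 5.07 (SASCs), 28.0 ± 1.57 (PASCs), and 30.0 ± 3.63 CPM (EASCs, mean ± SD, n = 3 each).

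**Figure D5:**
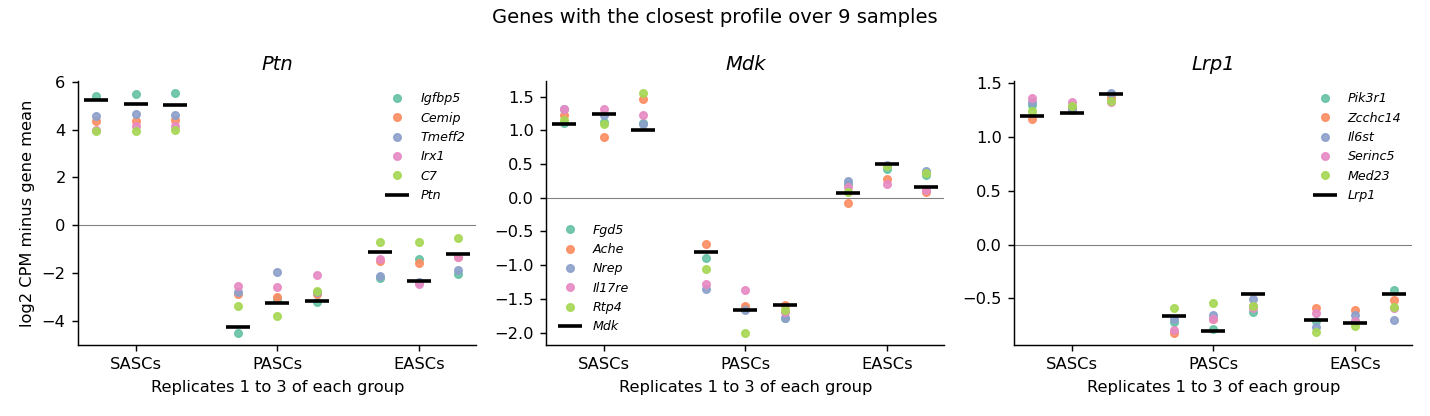
Log2 CPM minus the mean of each gene in the 9 samples for Ptn, Mdk, and Lrp1 (black bars) and the 5 genes with the closest profile to each (points). The axis of Ptn is the widest (-4.23 to 5.23 for Ptn, -0.799 to 1.40 for Lrp1), and in the panel of Mdk the EASCs (0.065 to 0.503) lie between the other groups.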

How the data were processed

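RNA of 9 samples, 3 each of SASCs, PASCs, and EASCs, was analysed, grouped by sample title. The authors trimmed paired-end reads with cutadapt and FastX-Toolkit, aligned them with TopHat to rn6 per the methods (the submitters' processing notes list TopHat2 and rn5), and deposited whole-number counts for 35362 genes without normalization, with positions and gene lengths. The counting tool, the use of strand, and the treatment of reads that match several genes are not given in the sources used here. The authors called DEGs with DEGseq, which was not used here.

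Counts were filtered with filterByExpr, which left 14770 genes, scaled by TMM, and tested by edgeR 4.0.16 (quasi-likelihood test, R 4.3.3) in one model of the 3 groups, with Benjamini-Hochberg adjustment over all genes tested. The test was run on counts simulated with the same spread for every gene, which checks the code and not the spread of these samples. The members and lists were chosen with earlier results of these data known. FPKM used the deposited length and the TMM-scaled library size. Intervals of pooled count ratios are exact (Clopper-Pearson, 95%). Genes nearest to a member had the smallest Euclidean distance of centered log2 CPM (prior count 2). For each role in the pathway list, the 2 DEGs with the largest change were named, besides genes at 0 in all samples. A few listed genes are counted in the lists but not reported here by name. The alternatives were DESeq2 1.42.0, no TMM, removal of ribosomal RNA genes, no filter, 2 groups alone, the replicate number as a block, limma 3.58.1 on log2(FPKM + 1), and leaving out each replicate. Replicates of a group differed by more than counting noise (chi-square per degree of freedom 4.58 to 18.0).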

Additional observations from a re-analysis of the deposited data

How the results depend on the processing

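Mdk, Ptprz1, and Lrp1 stayed lower in EASCs and PASCs than in SASCs, with an adjusted p-value under 0.05, under every alternative named in the methods and without each replicate in turn, although for Ptprz1, which passed the filter only through SASCs, this direction was built in. With limma on log2(FPKM + 1), which understates changes of low genes, DEGs fell to 1895 in EASCs, 1823 in PASCs, and 265 between them, from 4105, 3979, and 1091 by edgeR, and DEGs of the pathway list to 12 in EASCs and 3 between EASCs and PASCs, from 20 and 8. Ptprz1 was at -0.11 in both groups on that scale, and Mdk at -0.66 in EASCs. Lrp1 between EASCs and PASCs turned to -0.0861 with total counts without TMM (adjusted p = 0.825), a change of sign near 0 in a setting that moved the median of all genes from -0.01 to -0.08.

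Without each replicate in turn, the log2 difference between EASCs and PASCs lay between -0.98 and 0.42 for Ptprz1 and between -0.0757 and 0.105 for Lrp1, neither of which passed the test. DEGs of the pathway list in that comparison numbered 5, without EASCs replicate 1, to 8, and the log2 ratio of pooled Ptn counts of PASCs to SASCs lay between -11.1 and -9.57. When the replicate number entered as a block, the log2 fold changes in EASCs were -0.87 for Mdk, -2.17 for Ptprz1, and -1.90 for Lrp1, those in PASCs -2.48, -2.23, and -1.91, and DEGs numbered 4061, 3944, and 1067, so the block ended no call of a member. Deviations of samples with the same number had correlations of -0.03 to 0.04 across genes, within the range of other pairs (-0.07 to 0.06). No pairing by number was thus detected, but these values cannot tell whether samples shared a rat. Levels of a few counts, those of Ptn in PASCs (at most 2) and of Alk throughout (at most 4), cannot be resolved at this depth.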

Other observations

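A few genes of the pathway list were under the filter on low counts and entered no comparison. Ncan, the neuronal proteoglycan neurocan, had 4 to 10 counts in SASCs, at most 1 in PASCs, and 0 in EASCs. Bcan, its relative brevican, was at 0 in SASCs, with at most 4 counts in PASCs and 3 in EASCs. Tnr, the tenascin of the nervous system, had at most 1 count in SASCs, 6 in PASCs, and 0 in EASCs. No fold is given for any of these genes.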
